A study of Rattus norvegicus with 6 samples.

Results

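The endoplasmic reticulum folding genes described here are 10 genes measured in rat kidney: Hspa5, Hsp90b1, Pdia3, Pdia4, Pdia6, P4hb, Calr, Dnajb9, Manf and Sdf2l1. They were found by the gene symbol of the array annotation, and all 10 genes were measured, by 11 of the 31042 probe sets, among 14217 gene symbols in all. A probe set is a group of short probes for one transcript, and its signal is a brightness on a linear scale, scaled alike on all arrays. The congenic rats had part of chromosome 9 from the R strain and otherwise a Dahl S background. They were set against Dahl salt-sensitive (S) rats, the background strain. All rats of both groups were males born on the same day, shared cages across the strains, were weaned at 30 days, ate a diet with 2% salt and were 53 days old at death. Kidney RNA of 2 rats was pooled per array, with 3 arrays for congenic and 3 for S rats, so every value stands for a pool of 2 rats and precision is limited by the 3 arrays a group. The design places the series in a search for a blood pressure locus, and the arrays address how kidney transcripts differ with the segment. The genes were chosen by family and by the signal differences of several of them between these same congenic and S arrays. The differences between the strains are therefore given as a description, with standard errors and without a test. By the GRCr8 annotation none of the 10 genes lies on chromosome 9: Hspa5 and Pdia3 are on chromosome 3, Pdia6 and Dnajb9 on chromosome 6, and Pdia4, Hsp90b1, Manf, P4hb, Sdf2l1 and Calr on chromosomes 4, 7, 8, 10, 11 and 19.

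The endoplasmic reticulum is where secreted and membrane proteins fold, helped by chaperones that hold unfolded chains, by disulfide isomerases that form and reshuffle disulfide bonds, and by lectins that bind immature sugar chains. When unfolded chains accumulate, the membrane sensors ATF6, IRE1 and PERK start the unfolded protein response, in which ATF6 and XBP1 raise the transcription of many folding genes. Kidney tubule cells make large amounts of membrane transporters, receptors and the secreted protein uromodulin, all of which pass through this compartment.

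The promoters of the genes are shown because ATF6, together with the factor NF-Y, acts through a known sequence, the endoplasmic reticulum stress element (ERSE), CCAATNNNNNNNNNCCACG. Of the 10 genes, 7 were matched in the RefSeq promoter table of GRCr8, each with 250 bases before and 50 after the annotated start: Hspa5, Hsp90b1, Pdia4, P4hb, Calr, Dnajb9 and Sdf2l1. Pdia3, Pdia6 and Manf were not matched. On either strand, the full element was present in 3 of these 7 promoters, those of Hspa5, Hsp90b1 and Calr, and in 22 of all 33469 promoters (0.0657%), which belong to 21 genes. The Pdia4 promoter held the element without its last G, CCAATNNNNNNNNNCCAC, which 105 of all promoters held (0.314%, the full elements included). The related element ERSE-II, ATTGGNCCACG, was in none of the 7 and in 17 of all promoters (0.0508%), and the element TGACGTGG was in none of the 7 and in 199 of all (0.595%). The 5 letters CCAAT, which are part of the ERSE, were in all 7 and in 37.5% of all promoters. A match is a description of letters and not a tested binding site. Below are the promoters of the genes for the Hsp70 and Hsp90 chaperones and for Pdia4, 5′ to 3′ in the direction of the gene, with the matches in capitals. The second match of Hsp90b1 and that of Pdia4 run on the opposite strand and so read as the reverse complement.
Hspa5 chr3:38452766-38453065 plus strand: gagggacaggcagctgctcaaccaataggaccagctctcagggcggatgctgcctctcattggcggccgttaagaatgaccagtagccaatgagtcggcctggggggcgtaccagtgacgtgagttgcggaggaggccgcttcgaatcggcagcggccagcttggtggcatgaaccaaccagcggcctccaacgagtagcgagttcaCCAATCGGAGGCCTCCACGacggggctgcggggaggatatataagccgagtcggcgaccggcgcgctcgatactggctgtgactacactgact
Hsp90b1 chr7:23012244-23012543 minus strand: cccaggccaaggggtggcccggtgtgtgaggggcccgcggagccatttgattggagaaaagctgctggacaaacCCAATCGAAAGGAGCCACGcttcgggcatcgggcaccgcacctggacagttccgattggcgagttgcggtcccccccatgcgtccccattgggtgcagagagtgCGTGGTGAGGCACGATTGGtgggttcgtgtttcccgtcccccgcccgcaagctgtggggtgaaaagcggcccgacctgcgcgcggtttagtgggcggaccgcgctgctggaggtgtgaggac
Pdia4 chr4:78153142-78153441 minus strand: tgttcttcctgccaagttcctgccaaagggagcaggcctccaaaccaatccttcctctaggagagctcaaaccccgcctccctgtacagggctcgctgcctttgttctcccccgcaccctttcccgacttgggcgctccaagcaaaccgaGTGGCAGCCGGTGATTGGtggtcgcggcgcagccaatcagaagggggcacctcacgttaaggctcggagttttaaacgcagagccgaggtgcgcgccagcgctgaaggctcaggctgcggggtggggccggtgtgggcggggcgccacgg

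In Hspa5 the element lies 43 to 25 bases before the start. Hsp90b1 has 1 match at 176 to 158 bases and another at 72 to 54 bases before its start, the match of Calr lies at 232 to 214 bases and that of Pdia4 at 100 to 83 bases. The matches are set side by side here, each read in its own direction, with the fixed letters of the element in capitals and the 9 free bases in lower case. The last base of the Pdia4 window is in lower case because it differs from the element. The last 5 lines give the matches of genes of the same pathway outside the 10, which are compared with them further on.
Hspa5 chr3:38452973-38452991 plus strand: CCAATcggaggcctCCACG
Hsp90b1 chr7:23012347-23012365 plus strand: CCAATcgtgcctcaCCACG
Hsp90b1 chr7:23012451-23012469 minus strand: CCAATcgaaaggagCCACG
Calr chr19:40213135-40213153 minus strand: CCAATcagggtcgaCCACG
Pdia4 chr4:78153274-78153292 plus strand: CCAATcaccggctgCCACt
Xbp1 chr14:84604558-84604576 plus strand: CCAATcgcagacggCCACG
Canx chr10:35158069-35158087 minus strand: CCAATcatcacgctCCACG
Creld2 chr7:121789239-121789257 minus strand: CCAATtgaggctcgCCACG
Dnajc3 chr15:102432534-102432552 plus strand: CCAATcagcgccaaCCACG
Ero1b chr17:92941458-92941476 minus strand: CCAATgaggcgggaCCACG

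**Figure D1:**
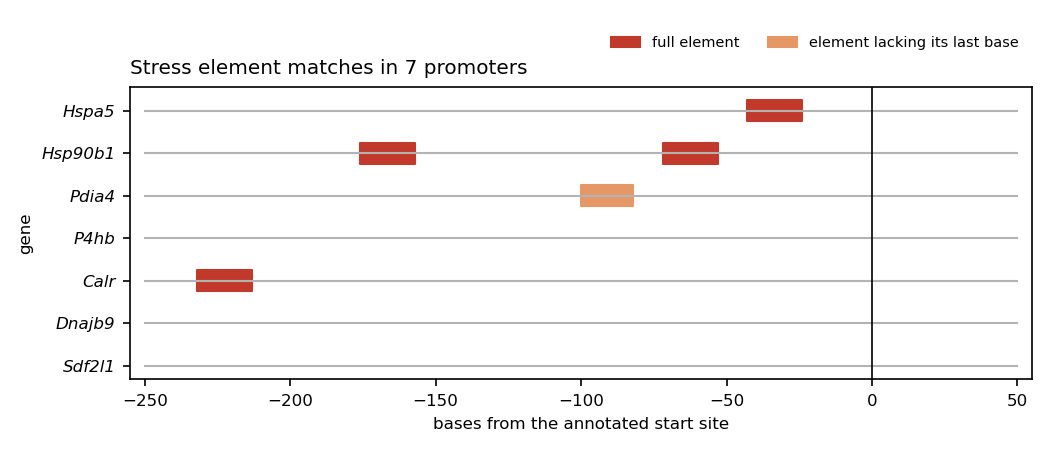
Positions of stress element matches in the 7 promoters of the table, in bases from the annotated start site (x axis), with 1 line per gene. Red bars are full elements and the orange bar is the Pdia4 match that lacks the last base. Hsp90b1 has 2 full matches, Hspa5 and Calr have 1 each, and P4hb, Dnajb9 and Sdf2l1 have none.

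Of the kidney markers, 7 of 8 had a probe set, all above the filter on low values, with Umod at 6589 to 7010 on congenic and 6576 to 6774 on S arrays. Nphs1, the podocyte protein nephrin, had 77.4 to 127 on congenic and 109 to 141 on S arrays. Aqp2, the water channel of the collecting duct, had 3002, 3418 and 3175 on the congenic arrays and 2817, 2466 and 2883 on the S arrays. It was the only one of the 7 kidney markers without overlap between the groups in the same direction as the folding genes, and its part in their values was not tested. Liver and adrenal transcripts stood out on 1 congenic array each. The 8 hepatocyte markers summed to 10190 on congenic replicate 1, against 272 to 290 on the other congenic arrays and 267 to 348 on the S arrays, with albumin (Alb) at 6683 on that array. The 6 adrenal markers summed to 5507 on congenic replicate 3, and to 138 and 143 on the other congenic arrays and 134 to 143 on the S arrays. The ratio of 3' to 5' actin signal, a measure of RNA degradation, came to 6.15, 6.64 and 7.17 on the congenic arrays and 9.42, 8.13 and 6.54 on the S arrays, with S replicate 1 highest. The limma fit over all 18625 probe sets above the filter called 0 of them (0%) after Benjamini-Hochberg adjustment at 0.05, and the smallest adjusted p was 0.145. The plain test without moderation called 0, and 1232 probe sets (6.61%) had an unadjusted p under 0.05 in the limma fit. None of the 10 genes was therefore called (0 of 10).

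Across the 10 genes the log2 fold change of congenic over S ran from -0.01 for P4hb to 0.40 for Pdia4, with a median of 0.21. It was above 0 for 9 of the 10, as for 48.7% of all tested probe sets, whose median was -0.0036 and whose quartiles were -0.08 and 0.08. For 5 of the 10 genes every congenic array lay above every S array: Pdia4, Manf, Dnajb9, Sdf2l1 and Hsp90b1. That held for 5.71% of all tested probe sets, and since this contrast entered the choice of genes the count is no evidence about them. No gene had all congenic arrays below the S arrays, and the groups overlapped for the other 5. In whole kidney RNA, fewer cells of a type and less RNA per cell cannot be told apart. Fold changes are on the log2(signal + 16) scale.

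**Figure D2:**
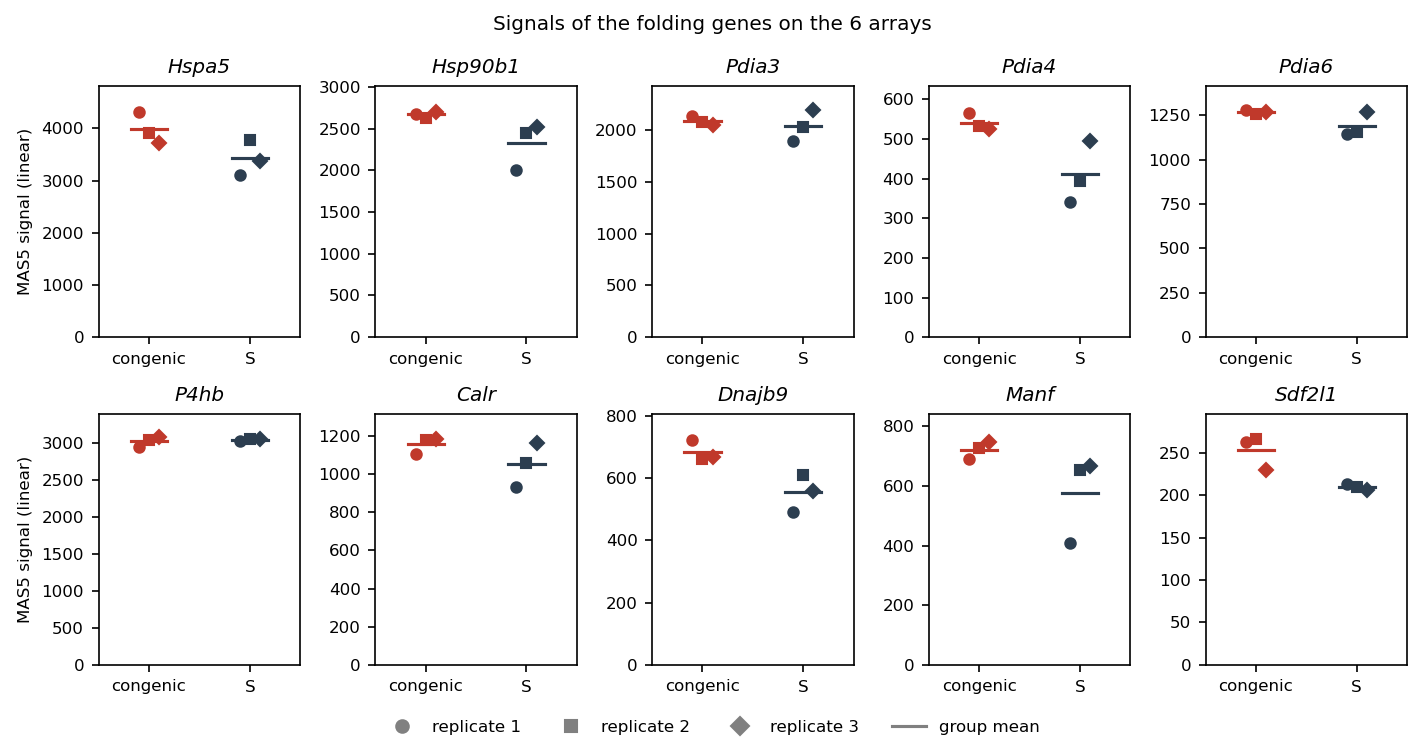
Signal of each gene (y axis, linear MAS5 signal from 0, a scale of its own per gene) on the 3 congenic arrays (red, left) and the 3 S arrays (dark, right), with symbols for the replicate number and a bar at the group mean. Pdia4, Manf, Dnajb9, Sdf2l1 and Hsp90b1 have no overlap between the groups, and the S replicate 1 symbol is the lowest of all 6 for 8 of the 10 genes.

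Hspa5 (probe set 1370283_at) encodes BiP, the Hsp70 chaperone of the endoplasmic reticulum, which holds unfolded chains and keeps the stress sensors inactive. Its signal was 4314, 3910 and 3715 on the congenic arrays and 3116, 3778 and 3376 on the S arrays. The groups overlapped, because the lowest congenic array, replicate 3, lay just below S replicate 2. The means were 3980 ± 306 in congenic and 3423 ± 333 in S pools (SD, n = 3 each), and the log2 fold change was 0.22 (SE 0.076). The highest of the 6 arrays was congenic replicate 1, the one with liver transcripts, and without it the log2 fold change was 0.16.

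Dnajb9 (1387116_at), a J-domain co-chaperone that brings clients to BiP, had 722, 663 and 667 on the congenic arrays and 491, 611 and 560 on the S arrays. All congenic arrays were above all S arrays, with means of 684 ± 33.1 in congenic and 554 ± 60.3 in S pools (SD, n = 3 each), and the log2 fold change was 0.30 (SE 0.082). Its order over the arrays was close to that of Hspa5, with congenic replicate 1 highest and S replicate 1 lowest, and without congenic replicate 1 its log2 fold change was 0.26.

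Manf (1372352_at), a small secreted protein that binds BiP in the lumen, measured 691, 728 and 749 in congenic pools and 409, 655 and 667 in S pools. The groups did not overlap, but S replicate 1 stood far below the other S arrays, 38.1% under their mean. With means of 722 ± 29.5 in congenic and 577 ± 146 in S pools (SD, n = 3 each), the log2 fold change was 0.35 (SE 0.15), and it was 0.12 (SE 0.065) without S replicate 1. Here 1 array carried most of the difference.

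Sdf2l1 (1373043_at), a luminal partner of BiP co-chaperones, had a different course. It measured 263, 266 and 230 on the congenic arrays and 213, 210 and 206 on the S arrays, so that the S arrays lay close together and S replicate 1 was the highest of them. Its means were 253 ± 19.9 in congenic and 210 ± 3.77 in S pools (SD, n = 3 each), and its log2 fold change was 0.25 (SE 0.080). Without S replicate 1 the value was 0.26.

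Hsp90b1 (1388331_at), the Hsp90 chaperone of the endoplasmic reticulum, which folds integrins and Toll-like receptors, had 2680, 2630 and 2702 on the congenic arrays and 2003, 2448 and 2522 on the S arrays. The congenic arrays lay within a factor of 1.03 of each other, all above the S arrays, of which replicate 1 was far the lowest. Means were 2671 ± 36.6 in congenic and 2324 ± 281 in S pools (SD, n = 3 each), with a log2 fold change of 0.21 (SE 0.079). Without S replicate 1 it was 0.10 (SE 0.050), with the groups still apart.

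Of the disulfide isomerases, Pdia4 (1370007_at), a member with an extra thioredoxin domain that is part of chaperone complexes with BiP, had the largest log2 fold change of the 10 genes. It measured 565, 533 and 525 on the congenic arrays and 342, 395 and 495 on the S arrays. Congenic arrays were close together and all above the S arrays, which were spread over a factor of 1.45. The means of 541 ± 20.8 in congenic and 411 ± 77.8 in S pools (SD, n = 3 each) gave a log2 fold change of 0.40 (SE 0.11). It was 0.28 (SE 0.096) without S replicate 1 and 0.54 without S replicate 3, the highest S array.

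Pdia6 (1370859_at), an isomerase that also attenuates the stress sensors, had 1280, 1257 and 1271 on the congenic arrays and 1146, 1154 and 1271 on the S arrays. S replicate 3 reached the congenic level, the other S arrays lay below it, and the log2 fold change was 0.09 (SE 0.058), or 0.14 without S replicate 3. Pdia3, which works with calreticulin and calnexin on glycoproteins, measured 2133, 2073 and 2046 in congenic and 1894, 2033 and 2189 in S pools with its brighter probe set (1398788_at). The S arrays spanned the congenic ones, and the log2 fold change of 0.03 (SE 0.060) was -0.018 without S replicate 1 and 0.086 without S replicate 3.

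A second, dimmer probe set of Pdia3 (1392920_at) had 79.0, 83.3 and 95.9 on the congenic arrays and 80.9, 82.1 and 76.1 on the S arrays. It ranked the arrays differently, with congenic replicate 3 highest and S replicate 3 lowest, and had a log2 fold change of 0.09 (SE 0.10). The other 9 genes had a single probe set each.

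P4hb (1367635_at) encodes protein disulfide isomerase itself, which is also the beta subunit of collagen prolyl 4-hydroxylase. It was the steadiest of the 10 genes, at 2942, 3042 and 3079 on the congenic arrays and 3031, 3048 and 3055 on the S arrays. The S arrays lay inside the congenic range, and the log2 fold change was -0.01 (SE 0.045), from -0.025 without congenic replicate 3 to 0.0073 without congenic replicate 1. Calr (1398750_at), the lectin chaperone and calcium store protein calreticulin, had 1104, 1180 and 1183 in congenic and 934, 1057 and 1164 in S pools. S replicate 3 lay within the congenic range and the other S arrays below it, with a log2 fold change of 0.14 (SE 0.078). This value was 0.057 (SE 0.067) without S replicate 1 and 0.21 without S replicate 3.

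**Figure D3:**
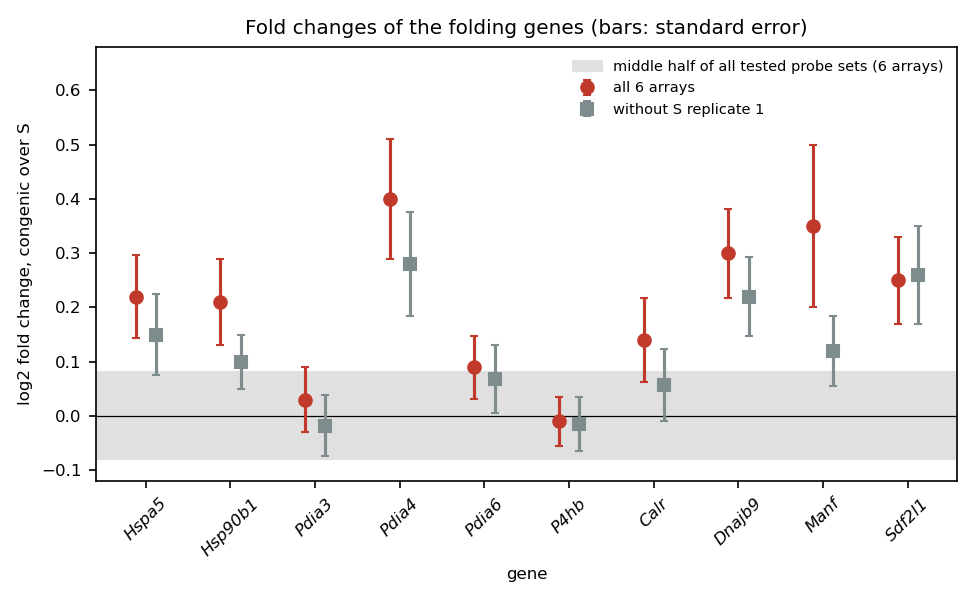
Log2 fold change of congenic over S on the log2(signal + 16) scale (y axis) for each gene, with all 6 arrays (red) and without S replicate 1 (grey squares), with bars of 1 standard error and the range between the quartiles of all tested probe sets as a grey band. Manf goes down to 0.12 and Hsp90b1 to 0.10 when S replicate 1 is left out, while Sdf2l1 is at 0.26 and Pdia4 at 0.28.

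S replicate 1 set much of the pattern. It was the lowest of all 6 arrays for 8 of the 10 genes, all but P4hb and Sdf2l1. Over all tested probe sets it was the lowest for 21.9%, and S replicates 2 and 3 for 14.1% and 14.3%. Since the contrast with S entered the choice of genes, an S array was likelier to be their lowest, so these shares are no like baseline. The median deviation of S replicate 1 from each gene's mean over the arrays was -0.24 on the log2 scale, and the other S arrays had -0.02 and 0.03. The congenic arrays had 0.11, 0.09 and 0.08. The arrays had been scaled alike, so a dimming common to most transcripts of an array could not be seen. S replicate 1 also had the highest actin 3' to 5' ratio, 9.42, and the part of this in the signals of the folding genes was not tested.

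Without S replicate 1 the median log2 fold change of the 10 genes was 0.11, with Pdia4 at 0.28, Sdf2l1 at 0.26 and Dnajb9 at 0.22. The quartiles of all tested probe sets were then -0.09 and 0.07. Of the 10 values 8 were above 0, and 5 genes, the same ones, had all congenic arrays above the remaining 2 S arrays, as had 9.91% of all tested probe sets.

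**Figure D4:**
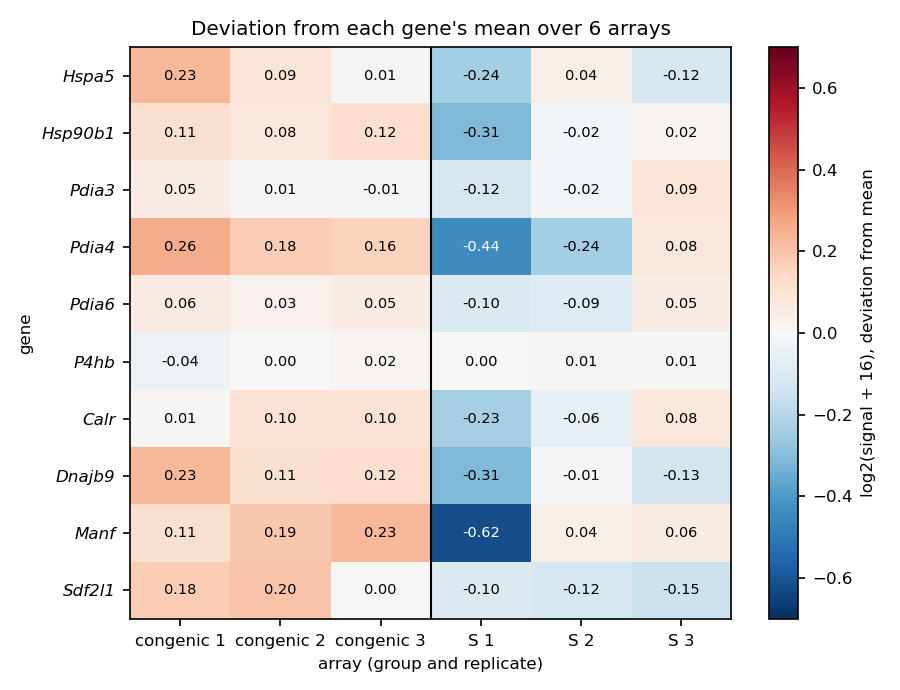
Deviation of log2(signal + 16) from each gene's mean over the 6 arrays (numbers and colour, red above and blue below the mean) for the 10 genes (rows) on the 3 congenic arrays (left of the line) and the 3 S arrays (right). S replicate 1 is the bluest column, with a median of -0.24, P4hb is near 0 throughout, and the 3 congenic columns have medians of 0.11, 0.09 and 0.08.

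The genes were tighter among congenic than among S pools. The ratio of the highest to the lowest array had a median over the 10 genes of 1.07 in congenic and 1.23 in S pools, beside 1.17 in congenic and 1.18 in S pools for all tested probe sets. The standard deviation on the log2 scale was larger in S for 8 of the 10 genes, all but P4hb and Sdf2l1, and for 52.4% of all tested probe sets. Between S replicates 2 and 3 alone the ratio had a median of 1.08 over the 10 genes and 1.09 over all tested probe sets. Pdia4 was an exception, with a ratio of 1.26 between S replicates 2 and 3.

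Markers of other cell types, some of them rich in endoplasmic reticulum, are given beside these signals. Of 6 plasma cell and B cell markers 5 had a probe set and 1 was above the filter, and they summed to 104 to 134 on congenic and 78.5 to 112 on S arrays. The antibody-joining chain gene Jchain was the 1 above the filter. It had 59.1, 35.8 and 57.8 on the congenic arrays and 58.9, 31.2 and 54.0 on the S arrays. Mzb1, a plasma cell chaperone below the filter, had 24.0 to 31.3 on congenic and 18.1 to 20.8 on S arrays. The plasma cell receptor gene Tnfrsf17, also below the filter, had 13.5, 18 and 14.8 on the congenic arrays and 6.46, 9.65 and 8.79 on the S arrays. Mzb1 and Tnfrsf17 were higher on every congenic array than on any S array, and their part in the result was not tested. The groups overlapped for Jchain, and for Ms4a1 and Cd79b, which were below the filter. Ms4a1 had 26.2, 16 and 17.6 on the congenic arrays and 21, 16.6 and 20.2 on the S arrays. Of the 6 pancreatic acinar markers only Cela1 was above the filter (838 to 900 on congenic, 814 to 872 on S arrays), with Prss1 at 2.22 to 9.99 on congenic and 4.04 to 9.45 on S arrays. Of those below the filter, Cel did not overlap either, at 4.15 to 7.12 on congenic and 0.66 to 3.96 on S arrays. The groups overlapped for the rest. Cpb1 had 13.3, 3.36 and 4.99 on the congenic arrays and 4.16, 16.7 and 21.8 on the S arrays. Cpa1 had 0.869 to 1.89 on congenic and 0.934 to 6.41 on S arrays, and Amy2a3 3.54 to 5.92 on congenic and 0.712 to 4.23 on S arrays. Macrophage and T cell markers summed to 2850 to 3284 on congenic and 2841 to 3090 on S arrays, mostly Cd74, and fat markers to 989 to 1517 on congenic and 1297 to 1659 on S arrays. Urothelial markers summed to 401 to 470 on congenic and 494 to 542 on S arrays, with no overlap, and their part was likewise not tested. The largest part of the sum was Krt19, at 207 to 245 on congenic and 253 to 264 on S arrays. Upk1b did not overlap either, whereas Upk1a, Upk2 and Upk3a did. With the congenic arrays that held liver and adrenal transcripts left out, congenic replicate 2 was the only congenic array. The median log2 fold change of the 10 genes was then 0.19, with Pdia4 at 0.38, Manf at 0.36 and Hspa5 at 0.20.

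The rest of the pathway was covered by 7 lists of 77 symbols, chosen with earlier results of these data known. Of the 77, 73 had a probe set and 71 were above the filter. Their median log2 fold change was 0.017, with 39 values above 0 and 32 below, and limma called 0 of them up and 0 down after adjustment over the whole table. Before adjustment 6 had a p under 0.05 and were higher in congenic pools, as were 3.10% of all tested probe sets, and 0 were lower, as were 3.52% of them. The plain test without moderation also called 0. All congenic arrays lay above all S arrays for 7 of these 71 and below for 3, beside 5.71% above and 6.79% below over the whole table. S replicate 1 was the lowest array for 20 of the 71, and for 21.9% of all tested probe sets. Each gene entered its list by its brightest probe set, and the list medians were not computed with the others. Those went both ways. Sec63 had 0.36 and -0.10 beside 0.02, Dnajc10 0.25 beside 0.11, Tmed2 0.24 beside 0.07 and Trib3 -0.08 beside 0.20.

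Partners and co-chaperones of BiP had a median of -0.0049, with 4 of 10 values above 0. Hyou1, the large Hsp70-like protein that exchanges the nucleotide of BiP, had a log2 fold change of 0.14 (SE 0.10), with 162 ± 16.1 in congenic and 146 ± 14.6 in S pools (SD, n = 3 each). It was 0.22 without congenic replicate 1, 0.21 without S replicate 3 and 0.08 without S replicate 2. Dnajc1, a membrane J-domain protein, was at -0.14, at -0.22 without S replicate 3, and at -0.03 in a second probe set. The glycoprotein chaperones and sugar-trimming enzymes had a median of 0.047, with 4 of 5 values above 0. Among them the glucosidase genes Prkcsh and Mogs had 0.06 and -0.10. With 1 array left out at a time, Prkcsh ran from 0.017 without congenic replicate 2 to 0.10 without congenic replicate 3, and was 0.032 without S replicate 3. Mogs was at -0.042 without S replicate 2 and at -0.19 without S replicate 3.

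Other oxidoreductases and prolyl isomerases had a median of 0.058, with 9 of 13 values above 0 and 2 at an unadjusted p under 0.05. Ero1a, the oxidase that recharges protein disulfide isomerase, measured 184, 179 and 175 on the congenic arrays and 147, 156 and 144 on the S arrays. The groups were clearly apart, and the log2 fold change was 0.24 (SE 0.079), which did not pass (adjusted p = 0.712, limma). It was 0.33 in a second probe set, and 0.23 without S replicate 1. The prolyl isomerase gene Fkbp2 had 0.14, 0.093 without congenic replicate 3, and 0.05 and -0.04 in its other probe sets. The list median was 0.033 without S replicate 1 and 0.025 without congenic replicate 3.

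Genes of endoplasmic reticulum associated degradation, which returns misfolded chains to the cytosol, had a median of -0.074, with 3 of 12 values above 0. The list median was -0.03 without congenic replicate 2. Herpud1, a stress-induced scaffold of the degradation complex, had the highest value of its list, at 1349, 1275 and 1283 on the congenic arrays and 994, 1130 and 1147 on the S arrays. All congenic arrays were above all S arrays, and the log2 fold change was 0.26 (SE 0.066), which did not pass (adjusted p = 0.693, limma). It was 0.19 without S replicate 1. The lectin gene Os9 was at -0.18, but at 0.18 in a second probe set. It was at -0.0024 without congenic replicate 2, at -0.31 without congenic replicate 3, at -0.29 without S replicate 1 and at -0.11 without S replicate 3.

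The sensors and transcription factors of the unfolded protein response had a median of 0.17, the highest of the 7 lists with all 6 arrays, with 8 of 11 values above 0 and 3 at an unadjusted p under 0.05. Ddit3, the stress transcription factor CHOP, measured 317, 331 and 304 on the congenic arrays and 179, 257 and 239 on the S arrays. The groups did not overlap, and the log2 fold change was 0.48 (SE 0.12), which did not pass (adjusted p = 0.637, limma). It was 0.33 without S replicate 1. Xbp1, which drives many folding genes, measured 1364, 1457 and 1430 on the congenic arrays and 1020, 1229 and 1304 on the S arrays. These groups were apart too, and the log2 fold change was 0.26 (SE 0.083), which did not pass (adjusted p = 0.701, limma). It was 0.16 without S replicate 1. S replicate 1 was the lowest array for 5 of the 11 genes, Ddit3 and Xbp1 among them. Without congenic replicates 1 and 3, the arrays with liver and adrenal transcripts, the list median was 0.064, below the 0.080 of the glycoprotein chaperones and near the 0.062 of the other oxidoreductases. Congenic replicate 2 was then the only congenic array.

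The translocon and signal peptidase genes had a median of 0.00094, with 6 of 11 values above 0, Sec61b of the translocation channel at 0.21 and Ssr1 at -0.13 (0.13 in a second probe set and -0.084 without S replicate 1). Sec61b was at 0.088 without congenic replicate 3. Other tested probe sets had 0.29 for Sec61a1 (0.02 in its brightest), 0.31 and 0.10 for Ssr3 (0.00 in its brightest) and -0.05 for Sec62 (-0.11 in its brightest). KDEL receptors, which return folding proteins such as BiP to the endoplasmic reticulum, and genes of early secretory traffic had a median of 0.021, with 5 of 9 values above 0. Sec24d, of the transport vesicle coat, was at 0.14 and Kdelr3 at -0.09. Sec24d was at 0.22 without congenic replicate 2. Kdelr3 was at -0.029 without congenic replicate 1, at -0.20 without congenic replicate 2 and at -0.049 without congenic replicate 3.

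**Figure D5:**
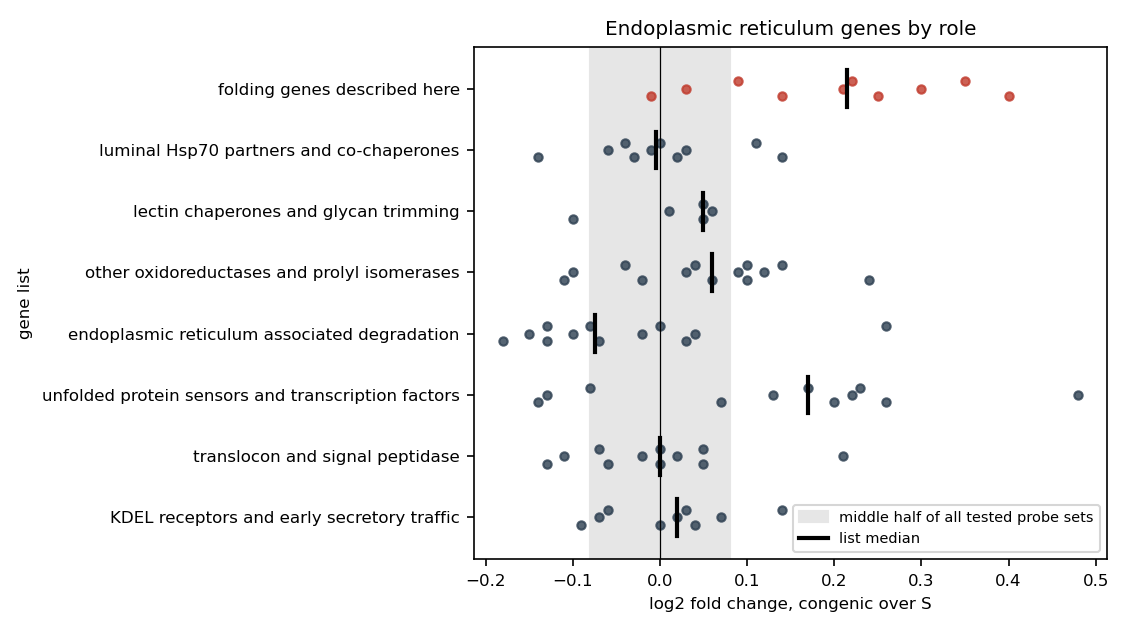
Log2 fold change of congenic over S (x axis) of each tested gene, by list (y axis), with the 10 folding genes in red, the other endoplasmic reticulum genes in dark blue, list medians as black bars and the range between the quartiles of all tested probe sets as a grey band. The median is 0.21 for the folding genes and 0.17 for sensors and transcription factors, and lies between -0.074 and 0.058 for the other lists.

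The genes with a full stress element had both directions. Of the 21 genes with a full element 17 had a probe set and 15 were above the filter, with a median log2 fold change of 0.0066 and 9 values above 0. Hspa5, Hsp90b1, Calr and Xbp1, whose elements are printed above, had 0.22, 0.21, 0.14 and 0.26, with overlapping groups for Hspa5 and Calr. Canx, Creld2, Dnajc3 and Ero1b, which carry the same fixed letters, had 0.01, 0.00, -0.03 and 0.04. The Canx value is that of its brightest probe set, and its other probe sets had 0.16 and 0.10. Canx, the membrane-bound lectin chaperone calnexin, measured 2122 ± 157 in congenic and 2109 ± 64.9 in S pools (SD, n = 3 each), and Creld2, a secreted stress-induced protein, 688 ± 43.3 in congenic and 692 ± 90.0 in S pools. In turn Dnajb9 and Sdf2l1 were among the genes with no overlap between the groups and had no match in their promoter windows, which says only that these letters are not in the window.

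The course of Hspa5 over the 6 arrays was compared with that of every tested probe set, by the mean absolute gap between the profiles after each was centred on its mean. Among the 10 genes Dnajb9 was nearest, with a gap of 0.041 on the log2 scale, and 11 probe sets of other genes were nearer still. Sdf2l1 and Hsp90b1 followed at 0.082 and 0.084, with 549 and 627 probe sets nearer. Manf was farthest, at 0.17. Outside the 10, the nearest genes were Bcl6b, Srrm2, Rad17, Sfxn4 and Ralgapa1, with gaps of 0.030, 0.031, 0.032, 0.034 and 0.038. The nearest of them, Bcl6b, measured 49.0, 46.7 and 42.8 on the congenic arrays and 35.2, 42.6 and 37.3 on the S arrays. Its log2 fold change was 0.20, and 0.11 with a pseudocount of 64. Other probe sets of Bcl6b, Srrm2 and Ralgapa1 were farther, at gaps of 0.093 to 0.17, 0.24, and 0.13 to 0.19. The nearest of these, a Bcl6b probe set at 0.093, had a log2 fold change of 0.23. The rest had 0.07 and 0.03 for Bcl6b, -0.27 for Srrm2, and 0.01 and -0.05 for Ralgapa1. Rad17 and Sfxn4 had no other tested probe set.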

How the data were processed

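The authors deposited 1 intensity per probe set and array, on a linear scale, made with MAS5 per the submitters' processing notes. MAS5 corrects the background, combines perfect match and mismatch probes and scales each array. For its version, target and detection calls the sources used here hold nothing. Trimmed of the top and bottom 2%, each array had a mean signal of 150, which hides a shift common to most transcripts. Titles assigned the 6 arrays to their groups.

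From these values log2(signal + 16) was computed. Controls (57 probe sets) and 12417 probe sets with a mean log2 value below the 40th percentile, a signal of about 25.0, were dropped. On the other 18625, limma 3.58.1 was run in R 4.3.3 (eBayes with intensity trend, Benjamini-Hochberg, threshold 0.05). The fit was tried on simulated data, with changes larger than those of the 10 genes. That trial does not show what the fit would find at their size. With 3 arrays a group the smallest p of an exact permutation test is 0.1, so none was used. Of the probe sets, 20826 had 1 gene symbol, 436 several and 9780 none. Symbols were updated through gene IDs to GRCr8 (20758 matched), and genes were represented by the probe set with the highest mean. The 10 genes and the 7 lists were chosen with earlier results of these data known. Named from each list were the 2 tested genes with the largest absolute log2 fold change. Genes with a full stress element and single cell type markers other than the widest-ranging of a list were named after their values were seen. Likeness to Hspa5 named the 5 genes with the smallest gap.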

Additional observations from a re-analysis of the deposited data

How the results depend on the processing

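Across the alternatives (pseudocounts of 1 and 64, quantile normalization, median centring, the replicate block, leaving out each array in turn, leaving out congenic replicates 1 and 3, and the median over a gene's probe sets) the median log2 fold change of the 10 genes stayed between 0.11 and 0.25. The low end came without S replicate 1. Another filter on low values (none, or the 60th percentile), eBayes without trend and the plain test each called 0 probe sets. With the replicate number as a block the median was 0.21 and 0 probe sets were called, and the block changed no other call. Deviations from the group means of arrays with the same replicate number correlated at 0.043, 0.022 and 0.017, so the numbers were not taken to pair the arrays. Of 120 values of single genes 118 kept their direction. The exceptions were Pdia3, at -0.018 without S replicate 1, and P4hb, at 0.0073 without congenic replicate 1, both within the spread between replicates. Leaving out 1 array at a time called 0 to 3 probe sets over the whole table, 3 without S replicate 3 and 1 without congenic replicate 2, none of them in the 7 lists. The number of genes whose groups did not overlap was 5 with quantile normalization and 6 with median centring. Under these settings the share over all tested probe sets was not computed, so the counts cannot be judged. With congenic replicate 2 alone the number was 7, where 24.6% of all tested probe sets had the congenic array above all S arrays. These counts, and the one without S replicate 1, were added after seeing the data. Of 228 values of other named genes 2 changed direction, Sec24d at -0.02 and Kdelr3 at 0.13, both with congenic replicates 1 and 3 left out. In all, 6 of the 228 moved by more than the spread between replicates. Among them were Os9 at -0.54 and Prkcsh at 0.13, with the same arrays left out. Of 84 list medians 16 changed direction, among them that of the glycoprotein chaperones, which ran from -0.019 without S replicate 2 to 0.088 without congenic replicate 3. With 1 array left out, the medians of the Hsp70 partners ran from -0.033 to 0.026, of the translocon genes from -0.030 to 0.017 and of the KDEL and traffic genes from -0.0097 to 0.050. The cause of these changes was not tested. The median of the sensors was 0.12 without S replicate 1, 0.11 with a pseudocount of 64 and 0.064 without congenic replicates 1 and 3.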

Other observations

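Genes outside protein folding that carry a full stress element in their promoter window and were above the filter had log2 fold changes between -0.08 and 0.12. Each value is that of the brightest probe set, of 5 for Hnrnpa3, 3 for Ppm1l and 2 for Pan2, and their other probe sets are not given. Hnrnpa3, an RNA-binding protein gene, had a log2 fold change of 0.12 and Zfp57, a zinc finger gene involved in imprinting, of 0.11. Ankmy2 was at -0.06, Zfand2a at -0.05, Birc5, the gene of survivin, at -0.02, and Ppm1l at 0.01. Pan2, a subunit of a deadenylase, measured 243 ± 7.33 in congenic and 257 ± 6.54 in S pools (SD, n = 3 each), with -0.08 on the log2 scale and no overlap between the groups. Over the 12 tested genes with the element outside the 10 folding genes the median log2 fold change was 0.0016, with 6 values above 0 and 6 below.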
